A study of Homo sapiens with 6 samples.

Results

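Genes that build epithelial cell junctions or mark epithelial identity were followed in MDA-MB-231, a line of human breast cancer cells that lack hormone receptors and look mesenchymal, after knockdown of the splicing factor SF3B6. The 10 genes were chosen by symbol: EPCAM, CDH1, CLDN1, OCLN, TJP1, F11R, ESRP1, ELF3, GRHL2 and KRT18. All 10 were found in both the read count table (39323 genes) and the FPKM table (39210 genes). The siSF3B6 group held 3 libraries of cells that received a duplex siRNA aimed at SF3B6, and the siNC group held 3 libraries of cells given a non-targeting duplex. All cells received the same lipid reagent, and polyadenylated RNA was sequenced from both groups. A single targeting duplex was used, and a second duplex or a rescue was not analysed here. Its sense strand is printed in lower case with the overhang in capitals, because it is the agent that separates the groups.
siSF3B6 sense strand: ggaggaacaguugaagcuuTT

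Epithelial cells are held to their neighbours by adherens junctions, in which E-cadherin binds across the gap between cells, and are sealed by tight junctions, in which claudins, occludin and junctional adhesion molecules are tied to actin by ZO proteins. Grainyhead-like and ETS-family transcription factors and the ESRP splicing regulators maintain this state in epithelia. Cells of mesenchymal character such as MDA-MB-231 usually express E-cadherin poorly while keeping simple keratins, and SNAI and ZEB factors are known repressors of the E-cadherin gene.

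Gene totals ran from 30684131 to 38546037 reads in siSF3B6 and from 28504091 to 33754386 in siNC. Mitochondrially encoded genes took 10.6% to 11.8% of reads in siSF3B6, against 3.38%, 3.93% and 9.07% in siNC replicates 1, 2 and 3. Between 7877 and 8325 genes had 1 to 9 reads in the siSF3B6 libraries, against 13952, 14956 and 7731 in siNC replicates 1, 2 and 3. Replicates 1 and 2 were closer to each other than to replicate 3 in both groups (mean chi-square per gene 2.3 against 16.6 and 20.1 in siSF3B6, and 3.49 against 54.1 and 67.5 in siNC). No label says whether the replicates were separate cultures, so the spread behind each p-value is that of these libraries and may be technical. Vimentin (VIM) had 2990 to 3320 CPM in siSF3B6 and 2880 to 3270 CPM in siNC, and the oestrogen receptor gene ESR1 reached at most 0.133 CPM in any library, as is usual for this line. SF3B6 itself was at 22.9 ± 1.89 CPM in siSF3B6 and 89.6 ± 11.1 CPM in siNC (SD, n = 3 per group), 25.6% of the siNC level (log2 fold change -1.96, edgeR quasi-likelihood adjusted p = 1.43e-07).

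Levels spanned more than 4 orders of magnitude, and most of the genes were low in this line. By the deposited FPKM, which is scaled by gene length and so can be set side by side between genes, the order in siNC was KRT18, F11R, EPCAM, TJP1, ELF3, CLDN1, CDH1, OCLN, ESRP1 and GRHL2. KRT18, a keratin of simple epithelia, stood far above the rest at 212.3 ± 14 FPKM in siSF3B6 and 208.9 ± 3.73 FPKM in siNC, above 99.4% and 99.3% of protein-coding genes. F11R, which encodes the junctional adhesion molecule JAM-A, had 12.0 ± 0.238 FPKM in siSF3B6 and 9.70 ± 0.848 FPKM in siNC. EPCAM, an epithelial cell surface adhesion glycoprotein, had 7.74 ± 0.359 FPKM in siSF3B6 and 3.75 ± 0.215 FPKM in siNC, which placed it above 76.2% of protein-coding genes in siSF3B6 and above 62.8% in siNC. TJP1, which encodes the scaffold protein ZO-1, had 4.27 ± 0.514 FPKM in siSF3B6 and 3.55 ± 0.216 FPKM in siNC. In siNC the ranges of EPCAM and TJP1 overlapped, so their order there was not resolved, while in siSF3B6 the lowest EPCAM value (7.48 FPKM) lay above the highest TJP1 value (4.86 FPKM).

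The remaining 6 genes were under 2.5 FPKM in every library. ELF3, an ETS transcription factor of epithelia, had 1.49 ± 0.131 FPKM in siSF3B6 and 1.63 ± 0.0635 FPKM in siNC, and CLDN1, the sealing protein claudin-1, had 2.10 ± 0.297 FPKM in siSF3B6 and 1.27 ± 0.185 FPKM in siNC. By FPKM their order differed between the groups. The ELF3 values lay above all CLDN1 values in siNC and below all of them in siSF3B6 (1.35 to 1.61 FPKM for ELF3 and 1.89 to 2.44 FPKM for CLDN1). CDH1, the E-cadherin gene, had 0.90 ± 0.104 FPKM in siSF3B6 and 0.633 ± 0.0850 FPKM in siNC, above 43.5% and 40.1% of protein-coding genes. OCLN, which encodes occludin, had 0.533 ± 0.0289 FPKM in siSF3B6 and 0.467 ± 0.0586 FPKM in siNC. ESRP1, an RNA-binding regulator of epithelial exon choice, and GRHL2, a grainyhead-like transcription factor of epithelia, were at 0.03 FPKM or less in all 6 libraries. Scaled instead by the longest GENCODE release 29 transcript, CDH1 and OCLN changed places in siNC (0.919 and 0.958 CPM per kilobase), and their order there depends on the length used. By that scaling ELF3 and CLDN1 averaged 2.60 and 2.65 CPM per kilobase in siSF3B6, and 2.73 and 1.55 in siNC. Their separation in siSF3B6 therefore also depends on the length used.

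**Figure D1:**
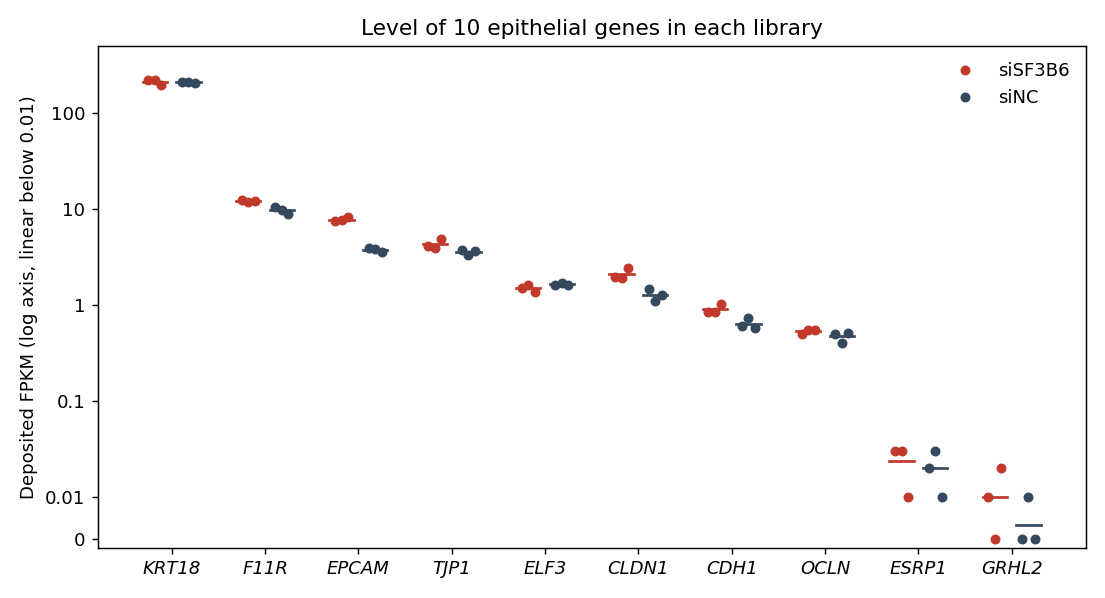
Deposited FPKM of the 10 epithelial genes (vertical log axis, linear below 0.01) in each of 3 siSF3B6 libraries (red, left of each pair) and 3 siNC libraries (dark, right of each pair), with the group mean as a bar, ordered by the siNC mean. KRT18 lies at or above 196.08 FPKM in every library, ESRP1 and GRHL2 at or below 0.03 FPKM, and the siSF3B6 points of EPCAM all lie above its siNC points.

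Among the 8 genes with enough reads to be tested, 5 rose in siSF3B6 (EPCAM, CLDN1, CDH1, F11R and TJP1), 0 fell, and OCLN, KRT18 and ELF3 did not pass the threshold (edgeR quasi-likelihood test, Benjamini-Hochberg adjusted p under 0.05 over 16869 genes). Of all genes tested, 20.8% were called higher and 20.0% lower. The median log2 fold change of the 8 was 0.34, against 0.00 over all genes tested. In 6 of the 8, every siSF3B6 library lay above every siNC library, which was the case for 26.3% of all genes tested. The exact two-sided permutation test of each of these 6 gave p = 0.1, the smallest that 3 libraries against 3 can give. More cells that express a gene and more RNA per cell cannot be told apart in these bulk libraries.

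EPCAM changed most. It had 22, 22.3 and 24.0 CPM in siSF3B6 replicates 1 to 3, against 11.2, 11 and 9.85 CPM in siNC replicates 1 to 3 (CPM being reads scaled for library depth with TMM factors). Every siSF3B6 library lay far above every siNC library. The log2 fold change was 1.09 (SE 0.0953, adjusted p = 4.03e-06), or 2.14-fold with a 95% interval of 1.85 to 2.46, and 1.86% of all genes tested had a change at least as high. EPCAM (ENSG00000119888.11) lies at chr2:47345158-47387601 on the plus strand of GRCh38, and its exons overlap no other annotated gene.

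The E-cadherin gene CDH1 (ENSG00000039068.20, chr16:68737225-68835548, plus strand) also rose. Its level was 6.19, 6.20 and 7.49 CPM in siSF3B6 replicates 1 to 3, against 4.23, 5.23 and 4.02 CPM in siNC replicates 1 to 3, from 182 to 229 reads per siSF3B6 library and 132 to 158 reads per siNC library. The groups did not overlap, but the change was smaller than that of EPCAM, at 0.56 on the log2 scale (SE 0.144, adjusted p = 0.00697), or 1.48-fold with a 95% interval of 1.19 to 1.83. Despite the rise, CDH1 remained at about 1 FPKM or less in all siSF3B6 libraries (0.84, 0.84 and 1.02 FPKM). An antisense gene covers 5.6% of its exonic bases.

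Of the 4 tight junction genes, CLDN1 changed most. CLDN1 (ENSG00000163347.6, chr3:190305701-190322475, minus strand) had 8.65, 8.28 and 10.7 CPM in siSF3B6 replicates 1 to 3, against 6.19, 4.67 and 5.33 CPM in siNC replicates 1 to 3. The groups did not overlap. On the log2 scale CLDN1 rose by 0.77 (SE 0.142, adjusted p = 0.000821), or 1.7-fold with a 95% interval of 1.38 to 2.11. Replicate 3 was the highest of the siSF3B6 libraries, as it was for EPCAM, CDH1 and TJP1.

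F11R (ENSG00000158769.18, chr1:160995211-161021348, minus strand) had 75.4, 72.4 and 73.2 CPM in siSF3B6 replicates 1 to 3, against 62.0, 58.7 and 51.4 CPM in siNC replicates 1 to 3. The siSF3B6 libraries differed little from each other, and the log2 fold change was 0.36 (SE 0.0858, adjusted p = 0.0043), or 1.29-fold. Another annotated gene on the same strand, AL591806.3, covers 36.6% of the exonic bases of F11R, so the 2 may share reads. Set against siNC replicate 3 alone, F11R was higher by 0.51 on the log2 scale (adjusted p = 0.0199, range over the 20 alternatives 6.21e-07 to 0.048).

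The call of TJP1 was the least stable of the 5. TJP1 (ENSG00000104067.17, chr15:29699367-29968865, minus strand) had 55.8, 53.3 and 66.8 CPM in siSF3B6 replicates 1 to 3, against 49.0, 44.1 and 47.6 CPM in siNC replicates 1 to 3. The groups did not overlap, and TJP1 rose by 0.32 on the log2 scale (SE 0.0959, adjusted p = 0.0162), with a 95% interval of the fold of 1.08 to 1.44. Without siSF3B6 replicate 3, its highest library, the change was 0.21 (adjusted p = 0.041), and over the 20 alternatives it ran from 0.21 to 0.39. The call was lost without siNC replicate 2 (0.28, adjusted p = 0.0832), against siNC replicate 3 alone (0.29, adjusted p = 0.223), with library size as the only scaling (0.22, adjusted p = 0.0963) and in all 3 FPKM fits, over a range of adjusted p of 0.000291 to 0.223 in the 20 alternatives. Library size alone put the median of all genes at -0.10 on the log2 scale.

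OCLN (ENSG00000197822.12, chr5:69492292-69558104, plus strand) had 6.84, 7.53 and 7.46 CPM in siSF3B6 replicates 1 to 3, against 6.48, 5.33 and 6.70 CPM in siNC replicates 1 to 3. Its siSF3B6 libraries all lay above its siNC libraries, by as little as 6.84 against 6.70 CPM. The log2 fold change of 0.24 (SE 0.126) did not pass the threshold (adjusted p = 0.15), and its 95% interval, -0.03 to 0.51, leaves room for no change and for one of the size seen in F11R. Reads assigned to the occludin pseudogene amounted to at most 4.5% of the OCLN reads of a library.

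Printed promoter windows are those of the 4 genes with an entry in the RefSeq promoter table (GRCh38.p14), each from 250 bases before to 50 after a transcription start. They set 2 genes that rose, CLDN1 and TJP1, beside 2 that did not pass the threshold, OCLN and ELF3. EPCAM, CDH1, F11R, ESRP1, GRHL2 and KRT18 had no entry. Capitals mark CACCTG or its reverse complement CAGGTG, the E-box letters bound by SNAI and ZEB factors, searched on both strands. Where a gene had several windows, the most upstream is shown.
CLDN1, chr3:190322397-190322696, minus strand: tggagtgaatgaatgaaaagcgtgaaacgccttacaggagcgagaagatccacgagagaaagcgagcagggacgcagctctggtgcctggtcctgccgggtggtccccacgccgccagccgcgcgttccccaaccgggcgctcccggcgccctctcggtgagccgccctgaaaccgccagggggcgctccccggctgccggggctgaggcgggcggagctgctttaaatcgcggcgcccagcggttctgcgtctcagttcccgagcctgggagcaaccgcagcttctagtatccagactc
TJP1, chr15:29969000-29969299, minus strand: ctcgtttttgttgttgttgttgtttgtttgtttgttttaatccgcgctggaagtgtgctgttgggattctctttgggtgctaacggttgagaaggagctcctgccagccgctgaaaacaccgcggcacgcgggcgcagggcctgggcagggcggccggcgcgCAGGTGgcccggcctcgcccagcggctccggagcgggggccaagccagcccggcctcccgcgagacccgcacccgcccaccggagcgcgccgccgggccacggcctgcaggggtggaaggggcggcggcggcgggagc
OCLN, chr5:69492297-69492596, plus strand: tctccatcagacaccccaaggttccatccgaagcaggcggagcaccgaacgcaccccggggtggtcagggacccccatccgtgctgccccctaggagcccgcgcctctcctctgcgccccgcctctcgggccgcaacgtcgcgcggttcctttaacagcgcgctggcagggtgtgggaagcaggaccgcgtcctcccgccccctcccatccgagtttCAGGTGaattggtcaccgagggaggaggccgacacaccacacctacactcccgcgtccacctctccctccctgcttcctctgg
ELF3, chr1:202010337-202010636, plus strand: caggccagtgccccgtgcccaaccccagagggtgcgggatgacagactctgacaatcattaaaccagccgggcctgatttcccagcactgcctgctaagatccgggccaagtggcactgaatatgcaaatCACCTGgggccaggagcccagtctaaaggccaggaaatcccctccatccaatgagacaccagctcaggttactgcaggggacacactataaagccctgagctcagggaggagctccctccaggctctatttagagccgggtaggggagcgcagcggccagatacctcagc

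The E-box letters stood once in the windows shown for TJP1, OCLN and ELF3, starting 88, 33 and 120 bases before the transcription start, and not in that of CLDN1. A further OCLN window held them at 2 places and the 3 further TJP1 windows at 0. They occur in 20.6% of the 35116 promoter windows of the table. The grainyhead motif AACCGGTT, which is its own reverse complement, was found in 0 of the members' windows and in 0.134% of all windows. A match describes letters only. Of the 2 genes that rose, the TJP1 window shown holds them and the CLDN1 window does not, and those of the 2 genes that did not pass the threshold hold them.

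Apart from EPCAM, KRT18 and ELF3 were the better expressed of the identity genes, and neither passed the threshold. KRT18 (ENSG00000111057.11, chr12:52948871-52952901, plus strand) had 819, 818 and 730 CPM in siSF3B6 replicates 1 to 3, against 764, 756 and 728 CPM in siNC replicates 1 to 3, with overlapping groups. Its log2 fold change was 0.08 (SE 0.0847, adjusted p = 0.506), with a 95% interval of -0.11 to 0.26. An offset for GC content and length raised it to 0.215 (adjusted p = 0.00614) and the libraries numbered 1 and 2 alone gave 0.11 (adjusted p = 0.00774), both past the threshold, while library size alone, which put the median of all genes at -0.10, gave -0.03 (range of adjusted p over the 20 alternatives 0.00614 to 0.87). KRT8 on the opposite strand covers 16.3% of the exonic bases of KRT18, and the 28 KRT18 pseudogenes in the table together held at most 0.13% of its reads.

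ELF3 (ENSG00000163435.16, chr1:202007945-202017188, plus strand) had 13.2, 14 and 11.8 CPM in siSF3B6 replicates 1 to 3, against 13.3, 14.4 and 13.2 CPM in siNC replicates 1 to 3. Its log2 fold change was -0.07 (SE 0.101, adjusted p = 0.611), with a 95% interval of -0.29 to 0.15. As a fold, that interval runs from 0.819 to 1.11. The sign turned with the GC and length offset (0.04). AL691482.3 on the same strand covers 9.2% of its exonic bases and the antisense gene ELF3-AS1 also covers 9.2%, so reads may be shared.

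ESRP1 and GRHL2 had too few reads to be tested. ESRP1 (ENSG00000104413.18, chr8:94641074-94707466) had 5, 6 and 1 reads in siSF3B6 replicates 1 to 3 and 3, 5 and 1 reads in siNC replicates 1 to 3. GRHL2 (ENSG00000083307.12, chr8:101492432-101669726) had 2, 1 and 5 reads in siSF3B6 replicates 1 to 3 and 0, 3 and 0 reads in siNC replicates 1 to 3. Per read sequenced, the siSF3B6 to siNC ratio was 1.22 for ESRP1 (exact 95% interval 0.471 to 3.27) and 2.44 for GRHL2 (0.585 to 14.3), intervals that cover counting error only. Both intervals include no change, so the counts resolve neither a rise nor a fall of these genes. At this depth a count of 0 allows up to 3 reads, or 0.0811 to 0.102 CPM.

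**Figure D2:**
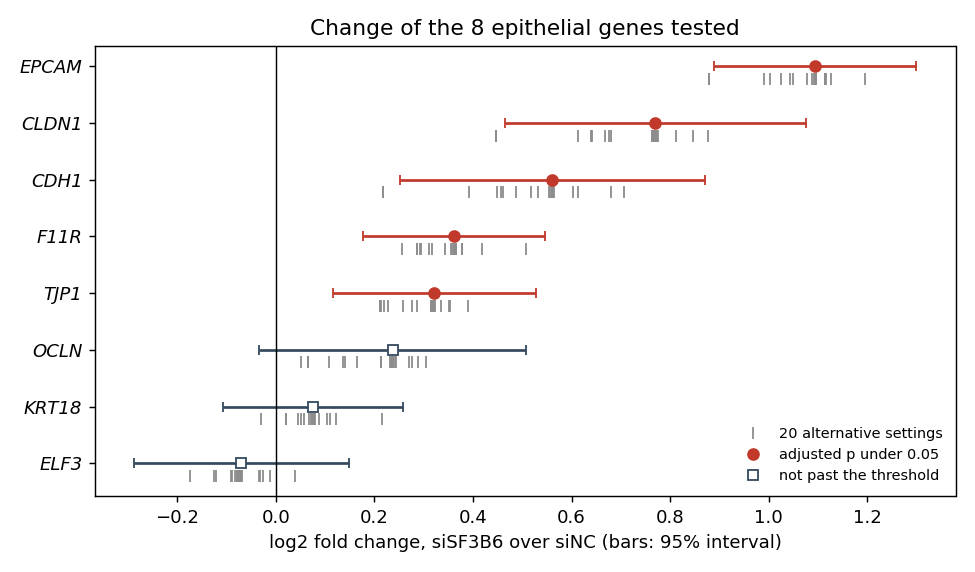
log2 fold change (siSF3B6 over siNC, horizontal axis) of the 8 epithelial genes tested, with 95% intervals. Filled circles passed an adjusted p of 0.05, open squares did not, and grey ticks below each gene are its values under the 20 alternative settings, which stay above 0.8 for EPCAM and lie on both sides of 0 for KRT18 and ELF3.

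**Figure D3:**
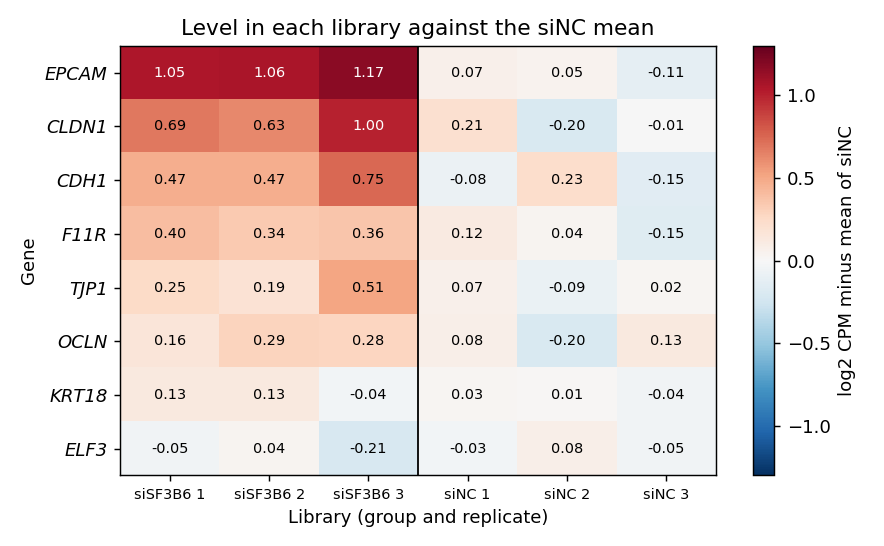
log2 CPM of the 8 genes (rows) in each library (columns) minus the gene's mean over the siNC libraries, printed in each cell and shown in colour (red higher, blue lower). EPCAM is 1.05, 1.06 and 1.17 in siSF3B6 replicates 1 to 3, and the highest siSF3B6 value is in replicate 3 for EPCAM, CLDN1, CDH1 and TJP1 but not for F11R, OCLN, KRT18 or ELF3.

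The genes differed in how far the change exceeded the spread among libraries of the same group. For EPCAM, the siNC libraries lay between -0.11 and 0.07 around their mean on the log2 scale, and the siSF3B6 libraries between 1.05 and 1.17 above it. For CDH1 the siNC libraries spread from -0.15 to 0.23 and for CLDN1 from -0.20 to 0.21, which is wider than any siNC spread of F11R, TJP1, KRT18 or ELF3. Against the siNC library nearest to siSF3B6 in its mitochondrial share, replicate 3, EPCAM was higher by 1.20, CLDN1 by 0.78 and CDH1 by 0.71 on the log2 scale. Against all siNC libraries these 3 changes were 1.09, 0.77 and 0.56. For F11R, TJP1, OCLN, KRT18 and ELF3 the change against replicate 3 alone was 0.51, 0.29, 0.11, 0.10 and -0.03. Against all siNC libraries it was 0.36, 0.32, 0.24, 0.08 and -0.07. The part of the mitochondrial share in these changes was not tested.

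Other genes of the same structures were read from the same fit. Their lists were chosen with earlier results of these data known, so their shares are a description and carry no test. In 6 further epithelial lists, 81 of 106 genes were tested, of which 29 rose (35.8%, against 20.8% of all genes tested) and 11 fell (13.6%, against 20.0%), with a median log2 fold change of 0.20, against 0.00 over all genes. Against siNC replicate 3 alone, 11 of these genes rose and 5 fell, and calls over all genes fell too, to 6.60% higher and 7.24% lower. Without siNC replicate 2, 22 rose and 7 fell, and of all genes 14.5% were called higher and 14.8% lower.

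In the list of other tight junction genes, 7 of the 21 tested rose (33.3%) and 2 fell (9.52%), with a median log2 fold change of 0.10. Of all genes tested, 20.8% rose and 20.0% fell. MARVELD2, which encodes tricellulin, the occludin relative found where 3 cells meet, rose most of the genes with at least 1 CPM. It averaged 7.81 ± 0.706 CPM in siSF3B6 and 3.37 ± 0.143 CPM in siNC (SD, n = 3 per group), up by 1.21 on the log2 scale (SE 0.131, adjusted p = 1.78e-05). PARD6B, a subunit of the Par polarity complex, rose by 0.71 and PATJ, a scaffold of the Crumbs polarity complex, by 0.46 on the log2 scale. CGNL1, which encodes paracingulin, fell to 1.82 ± 0.375 CPM in siSF3B6, against 3.60 ± 0.342 CPM in siNC, and CLDN23 fell by 0.32 on the log2 scale. CLDN4, the most highly expressed claudin gene of the list, did not pass the threshold at 22.1 FPKM in siSF3B6 and 26.2 FPKM in siNC. Set against siNC replicate 3 alone, a fit with 1 control library, fewer genes of the list were called, as was the case over all genes tested. Without siNC replicate 1 or 2, or without siSF3B6 replicate 1 or 3, 1 fell. In those fits 14.5% to 18.6% of all genes were called lower.

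Of 13 other adherens junction genes tested, 3 rose and 1 fell. The 23.1% that rose is close to the 20.8% of all genes tested, so that count is no result about the list. The 7.69% that fell is below the 20.0% of all genes tested, a difference that rests on 1 gene and was not tested. LIMA1, an actin-binding protein that links to the cadherin complex, averaged 145 ± 17.8 CPM in siSF3B6 and 103 ± 3.63 CPM in siNC, a log2 fold change of 0.49 (adjusted p = 0.000814). NECTIN3, an immunoglobulin-like adhesion molecule, rose by 0.50 and ARVCF, a p120-catenin relative, by 0.69, while NECTIN1 fell by 0.30. The catenin gene CTNNA1 did not pass the threshold (58.5 FPKM in siSF3B6 and 53.2 FPKM in siNC). With the replicate number as a block, 6 genes rose and 1 fell (all genes 24.0% and 23.7%). Leaving out siNC replicate 1 or 2, or siSF3B6 replicate 2 or 3, ended the call of NECTIN1, as did siNC replicate 3 alone. Without siNC replicate 2 or siSF3B6 replicate 1, 2 rose (all genes 14.5% and 16.8%).

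The desmosome list moved in both directions. Of 9 genes tested, 5 rose (55.6%, against 20.8% of all genes tested) and 3 fell (33.3%, against 20.0%). PERP, a membrane protein of desmosomes, averaged 201 ± 13.5 CPM in siSF3B6 and 105 ± 11.5 CPM in siNC, up by 0.94 on the log2 scale (SE 0.0918, adjusted p = 9.12e-06). The desmosomal cadherins DSG2 (0.65) and DSC2 (0.63) rose as well. EVPL, which encodes the plakin envoplakin, fell to 23.3 ± 0.480 CPM in siSF3B6, against 43.6 ± 1.45 CPM in siNC, a log2 fold change of -0.90 (adjusted p = 5.02e-06). PPL, encoding its partner periplakin, had a log2 fold change of -0.47 and PKP4 one of -0.24, both past the threshold. Against siNC replicate 3 alone, with 1 control library, fewer desmosome genes were called, as was the case over all genes tested.

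KRT7, KRT8 and KRT19, keratins of simple epithelia like KRT18, did not pass the threshold. Of 9 other keratin genes tested, 0 rose (against 20.8% of all genes tested) and 1 fell (11.1%, against 20.0%). The gene that fell, KRT80, averaged 115 ± 8.97 CPM in siSF3B6 and 152 ± 1.85 CPM in siNC (log2 fold change -0.40, adjusted p = 0.00126). KRT8, the partner with which KRT18 forms filaments, had 135 FPKM in siSF3B6 and 128 FPKM in siNC, KRT19 had 207 FPKM in siSF3B6 and 199 FPKM in siNC, and KRT7 had 136 FPKM in siSF3B6 and 161 FPKM in siNC. In the libraries numbered 1 and 2 alone 4 rose and 3 fell, where 28.6% of all genes were called higher and 27.0% lower. Without siNC replicate 3, 1 rose and 3 fell (all genes 22.5% and 21.4%). With library size only or with the replicate block 3 fell (all genes 27.0% and 23.7%). Without siSF3B6 replicate 3, 1 rose and 1 fell (all genes 18.4% and 18.6%). Of the 14 keratin genes in the table, 5 were under 0.1 FPKM, among them the basal keratins KRT5 and KRT14.

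Of 13 other epithelial transcription and splicing regulators tested, 7 rose (53.8%, against 20.8% of all genes tested) and 1 fell (7.69%, against 20.0%). KLF5, a zinc finger factor of epithelia, averaged 54.7 ± 7.16 CPM in siSF3B6 and 34.1 ± 3.74 CPM in siNC (log2 fold change 0.68, adjusted p = 0.000292). GATA3 (0.50), a luminal breast factor, ESRP2 (0.43), the paralogue of ESRP1, and KLF4 (0.42) rose as well, and TFAP2C had a log2 fold change of -0.41, past the threshold. ESRP2 was at 1.79 FPKM in siSF3B6 and 1.38 FPKM in siNC, so it was the better expressed of the 2 ESRP genes. SPDEF, the most highly expressed of the genes that did not pass the threshold, had 39.2 FPKM in siSF3B6 and 43.8 FPKM in siNC. Against siNC replicate 3 alone, with 1 control library, fewer of these regulators were called, as was the case over all genes tested. Without siNC replicate 1, siNC replicate 2 or siSF3B6 replicate 3, 4 rose, where 14.5% to 18.4% of all genes were called higher. TFAP2C was not called without siNC replicate 2 or siSF3B6 replicate 2.

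Of 16 other epithelial surface and effector genes tested, 7 rose (43.8%, against 20.8% of all genes tested) and 3 fell (18.8%, against 20.0%). The share that fell is close to that of all genes. Those with the largest rise were the lipocalin LCN2 (log2 fold change 0.92), the phospholipid enzyme gene CDS1 (0.87), the membrane protease matriptase, ST14 (0.84), and the receptor ERBB3 (0.72). ST14 averaged 8.22 ± 0.896 CPM in siSF3B6 and 4.61 ± 1.06 CPM in siNC (adjusted p = 0.00119). The genes that fell were AP1M2, a sorting adaptor subunit of epithelia (-0.67), the polarity gene LLGL2 (-0.48) and MAL2 (-0.45). SPINT2, an inhibitor of membrane proteases, had 83.3 FPKM in siSF3B6 and 80.6 FPKM in siNC and did not pass the threshold. Set against siNC replicate 3 alone, a fit with 1 control library, fewer genes of the list were called, as was the case over all genes tested.

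**Figure D4:**
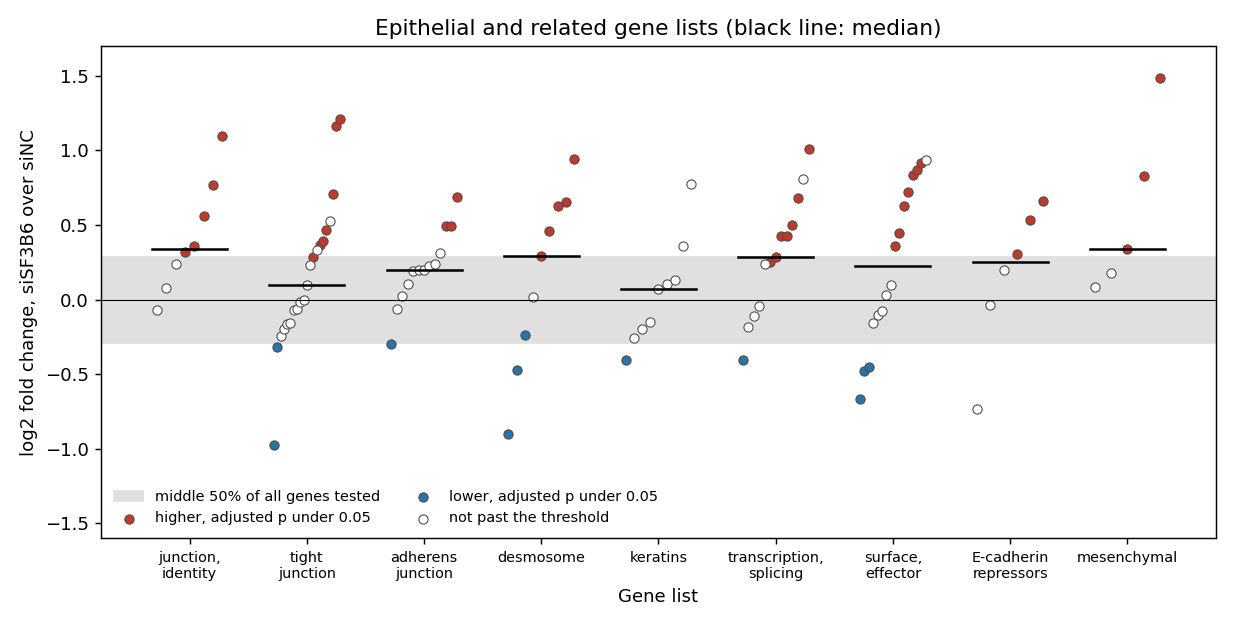
log2 fold change (siSF3B6 over siNC, vertical axis) of each tested gene in the 10-gene set (left) and in 8 further lists, with list medians as black lines and the middle 50% of all genes tested, -0.29 to 0.29, in grey. Filled points passed the threshold. The desmosome genes run from -0.90 for EVPL to 0.94 for PERP, and 8 of the 9 further keratins are open circles.

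The E-cadherin repressors and mesenchymal genes were read in the same way. Of 6 tested E-cadherin repressors, 3 rose and 0 fell, where 20.8% of all genes tested rose and 20.0% fell. Without siNC replicate 3, 3 rose and 1 fell (all genes 22.5% and 21.4%). Without siNC replicate 1 or 2 or siSF3B6 replicate 3, 2 rose, where 14.5% to 18.4% of all genes were called higher. SNAI2, which encodes Slug, averaged 29.2 ± 1.84 CPM in siSF3B6 and 18.5 ± 1.85 CPM in siNC, a log2 fold change of 0.66 (adjusted p = 0.000178). ZEB2 (0.53) and ZEB1 (0.30) rose as well, so CDH1 and these known repressors were higher in the same libraries. SNAI1 did not pass the threshold, at 4.08 FPKM in siSF3B6 and 3.68 FPKM in siNC, and TWIST1 and TWIST2 were under 0.1 FPKM. Of 5 mesenchymal genes, 3 rose (60.0%, against 20.8% of all genes tested) and 0 fell (against 20.0%). The mesenchymal cadherin CDH11 had 143 ± 8.21 CPM in siSF3B6 and 113 ± 5.05 CPM in siNC. CDH2, the N-cadherin gene, had 1.20 ± 0.142 CPM in siSF3B6 and 0.678 ± 0.164 CPM in siNC. SPARC, whose groups overlapped, had 1.84 ± 1.72 CPM in siSF3B6 and 0.675 ± 0.209 CPM in siNC. VIM, which encodes vimentin, did not pass the threshold (510 FPKM in siSF3B6 and 500 FPKM in siNC). Against siNC replicate 3 alone, with 1 control library, fewer of the 5 were called, as was the case over all genes tested. Without siNC replicate 3 or siSF3B6 replicate 2, 1 rose, and without siNC replicate 1 or 2 or siSF3B6 replicate 1, 2 rose. Over the fits that leave out 1 library, 14.5% to 22.5% of all genes were called higher and 14.5% to 21.4% lower.

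Profiles over the 6 libraries were compared with those of 84 listed genes of at least 1 CPM, by the root mean square difference of log2 values, each gene centred on its own mean. The profile nearest to EPCAM was that of MARVELD2 (0.124, against a median of 0.468 over the 84). The nearest to CLDN1 was the desmosomal cadherin gene DSC2 (0.0867, median 0.348), PATJ was nearest to both CDH1 (0.104, median 0.271) and F11R (0.0759, median 0.208), and ZEB1 was nearest to TJP1 (0.0364, median 0.226). For the genes that did not pass the threshold, the nearest were KRT8 to KRT18 (0.0393, median 0.181), TCF3 to ELF3 (0.0249, median 0.226) and TFAP2A to OCLN (0.0842, median 0.214). These distances describe 6 libraries in 2 groups and carry no test.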

How the data were processed

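RNA-seq of polyadenylated RNA covered 3 siSF3B6 and 3 siNC libraries, grouped and numbered by the sample titles. Gene-level read counts, whole and unnormalized, were deposited by the authors, and FPKM values were deposited by the authors with 2 decimals. Per the submitters' processing notes, HISAT2, DESeq2 and hg38 were used. Which counter, strand setting and annotation were used is not given in the sources used here: overlapping genes may share reads, although the libraries were strand-specific per the labels' protocols.

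Counts were tested with edgeR 4.0.16 in R 4.3.3 (filterByExpr, TMM factors, glmQLFit and glmQLFTest), with Benjamini-Hochberg adjustment over all 16869 genes tested. A call is an adjusted p under 0.05. Intervals are 95%. CPM values are TMM-scaled. In simulated counts of 16626 genes for siSF3B6 against siNC, 85% of genes changed 2-fold were recovered. Far fewer genes were changed in the simulation than were called in the data, so this share is not the recovery of the reported fit. Other fits used DESeq2 1.42.0, voom in limma 3.58.1, robust dispersion, other scalings and filters, log2(FPKM + 1) and log2(FPKM + 0.1) with limma, a replicate block, each library left out, the libraries numbered 1 and 2 alone and siNC replicate 3 alone as control, whose spread is then taken from siSF3B6. A GC and length offset and another gene length were added after seeing the data. Positions and overlaps are from GENCODE release 29 on GRCh38.

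The 10 genes and the lists were chosen with earlier results of these data known. Besides the 10 genes and SF3B6, up to 4 called genes of each list with at least 1 CPM and the largest changes were named, the nearest profiles, and up to 3 uncalled genes of highest level. CDH2, CLDN23, PPL, PKP4, TFAP2C, AP1M2, LLGL2, MAL2, KRT5, KRT14, TWIST1 and TWIST2 were named after their values were seen. A leukocyte marker list is given in part, and the rest is not reported here.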

Additional observations from a re-analysis of the deposited data

How the results depend on the processing

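EPCAM, CLDN1 and F11R kept their direction and their call in all 20 alternatives, at log2 fold changes of 0.88 to 1.20, 0.45 to 0.88 and 0.26 to 0.51. CDH1 kept its direction and lost its call only with unfiltered log2(FPKM + 1) (0.22, adjusted p = 0.123, range over the alternatives 0.00141 to 0.123). TJP1 kept its direction and lost its call in 6 of the 20, and OCLN was called in 0 of the 20. ELF3 turned to 0.039 with the GC and length offset and KRT18 to -0.03 with library size only, and the cause was not tested. With unfiltered log2(FPKM + 1), 3 of the 10 genes rose, 15 genes of the 6 further epithelial lists rose and 6 fell, and 1561 of all genes rose. Against siNC replicate 3 alone, 1178 of all genes rose and 1293 fell, and in the 6 lists 11 rose and 5 fell, a design with 1 control library. Over the fits that leave out 1 library, 4 to 5 of the 10 genes rose and 0 fell, 22 to 30 genes of the 6 lists rose and 7 to 13 fell, and 2503 to 3881 of all genes rose and 2503 to 3690 fell. Library size alone changed the split of all calls to 2459 higher and 4558 lower, against 3509 and 3380. The median of all genes was -0.27 with DESeq2 and without the low-count filter, where genes with few reads are included.

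No label says that the replicate numbers pair the libraries, so the main fit used no block. Same-numbered libraries had deviations from their group means that correlated at 0.028, 0.1 and 0.115 for numbers 1, 2 and 3. Each library correlated best with its own number, which is a hint from the data and not from the design. With the replicate number as a block, 4047 of all genes rose and 4005 fell, 5 of the 10 genes rose and 0 fell, and 31 genes of the 6 lists rose and 14 fell. The change with the block was 1.10 for EPCAM, 0.56 for CDH1, 0.77 for CLDN1, 0.24 for OCLN, 0.32 for TJP1, 0.36 for F11R, -0.07 for ELF3 and 0.07 for KRT18, with no call of these 8 altered. For ESRP1 and GRHL2 the read counts were too low to resolve a change in either direction.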

Other observations

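Markers of other lineages were low, and their part in the results was not tested. Among leukocyte markers, CD14 had 11.4 to 13.5 CPM in siSF3B6 and 11.3 to 14.6 CPM in siNC and did not pass the threshold, while CD3E and ITGAM stayed at or below 0.513 CPM. PTPRC rose at a level of at most 1.47 CPM. The sum of 5 fibroblast markers was 17.2 to 24.0 CPM in siSF3B6 and 12.9 to 16.7 CPM in siNC, with COL1A2 and LUM higher and PDGFRB lower. Both endothelial markers tested, PECAM1 and KDR, fell (9.09 to 10.8 CPM summed over 4 genes in siSF3B6 and 12.2 to 13.7 CPM in siNC), and CDH5 stayed at or below 0.0663 CPM. Of 3 neural markers, GFAP fell, and RBFOX3 was at or below 0.0595 CPM. The sum of 5 luminal breast markers was 67.1 to 75 CPM in siSF3B6 and 60.7 to 75.7 CPM in siNC, most of it ERBB2, and GATA3 rose. Of 6 markers of the line, CAV1 alone passed the threshold, upward.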
